A study of Mus musculus with 6 samples.

Results

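The BCL2 family survival and death genes are described here through 10 members, *Bcl2*, *Bcl2l1*, *Mcl1*, *Bcl2a1b*, *Bcl2a1d*, *Bax*, *Bak1*, *Bcl2l11*, *Bbc3* and *Pmaip1*. The members were taken by name from a list of gene symbols, and all 10 were present in the count table of 35602 genes and in both single-library tables. CD4+ T cells from the spleens of mice, stimulated through CD3 and CD28, received either MAPK13-inhibitors, a compound labelled MAPK13-IN-1 that blocks the kinase encoded by *Mapk13*, or the solvent DMSO. Each group held 3 libraries. The stimulation lasted 72 h with the compound or DMSO present, whereas the labels of replicates 2 and 3 place the addition after day 1 and give a dose of 17.1 µM. The labels of replicate 1 give neither its dose nor the day of addition. Those labels also give the mice of replicates 2 and 3 as wild type. Libraries were made in separate batches, with a stranded mRNA kit for replicate 1 of each group and with poly-T beads for replicates 2 and 3. For the latter, read counts per gene were deposited, with totals of 26874805 and 28487403 in the DMSO libraries and 33854760 and 32617702 with MAPK13-inhibitors. Replicate 1 of both groups was deposited as normalized values, which are read here as FPKM, fragments scaled by transcript length and library size, an inferred unit. The depth behind them is unknown. Nothing states that the libraries come from separate cultures or animals, so p-values measure only the spread between libraries, which may be technical.

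Proteins of the BCL2 family meet on the mitochondrial outer membrane and set whether a cell lives or dies by the intrinsic route. BAX and BAK open the membrane and let cytochrome c out, the pro-survival proteins BCL2, BCL-xL, MCL1 and A1 hold them in check, and BH3-only proteins such as BIM, PUMA and NOXA bind the pro-survival proteins or the effectors and so promote death. In T cells BCL2 is known for keeping resting cells alive, MCL1 is needed at most stages, A1 and BCL-xL are induced by stimulation, and BIM removes activated cells once growth factors run low.

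The labelled cell type was compared with its markers. Of 10 CD4 T cell markers listed, 7 were in the count table, and all 7 were counted in each library. *Cd4*, the coreceptor, had 7084 and 7497 counts with DMSO and 9477 and 9594 with MAPK13-inhibitors, a log2 fold change of -0.00 (adjusted p = 0.993, edgeR). The other 6, which include the CD3 chains, *Lck* and *Cd5*, fell. Summed over the 7 genes, the level was 1596 and 1618 CPM (counts scaled to a common library total) with DMSO and 947 and 1065 CPM with MAPK13-inhibitors. B cell markers were also abundant in these 4 libraries. Of 12 listed, 10 were in the table, none at 0, and they summed to 1095 and 1069 CPM with DMSO and to 1375 and 1386 CPM with MAPK13-inhibitors, with *Pax5*, a B cell transcription factor, as the most abundant at 171, 161, 276 and 281 CPM. Of these 10, 7 were called higher and 2 lower, beside 31.5% and 32.3% of all genes tested. The same 10 genes summed, in the replicate 1 pair, to 52.3 FPKM with DMSO and 36.5 FPKM with MAPK13-inhibitors, against 1024 and 934 FPKM for the CD4 T cell markers. The study's methods name a kit for isolating CD4 T cells from the spleen, a step meant to leave other cells out. The gene levels below are still those of preparations with a clear B cell signal in replicates 2 and 3.

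Markers of other cells were lower. The 2 CD8 T cell markers summed to 11.2, 10.4, 5.76 and 8.16 CPM in the order DMSO replicates 2 and 3, then MAPK13-inhibitors replicates 2 and 3, led by *Cd8b1*. The 5 NK cell markers, led by *Klrk1* and with *Klra8* at 0 in all 4 libraries, summed to between 3.20 and 5.26 CPM. Macrophage and monocyte markers, 10 genes led by *Cd68*, summed to 13.3, 11.9, 45.3 and 37.3 CPM in the same order. Dendritic cell markers, 6 genes led by *Zbtb46*, gave 18.4, 18.6, 61.9 and 51.1 CPM. Both myeloid lists were thus higher with MAPK13-inhibitors. Called higher were 6 of 8 macrophage genes tested and 4 of 4 dendritic cell genes tested, and none lower. Over all genes tested, 31.5% were called higher. Some of the myeloid calls rested on few reads, as for *C1qb*, at 2 and 0 counts with DMSO and 14 and 12 with MAPK13-inhibitors. The 9 erythroid markers, led by *Hbb-bs*, summed to 8.04, 7.90, 96.9 and 69.5 CPM, and the 5 platelet markers, led by *Itga2b* and with *Ppbp* at 0, to 18.9, 16.9, 26.6 and 23.5 CPM. The 9 neutrophil markers, led by *Mpo* and with *S100a9* at 0, summed to 0.223, 0.281, 0.886 and 1.01 CPM. A leading gene is that with the highest mean level over the 4 libraries, not always the highest in each. From DMSO to MAPK13-inhibitors in the replicate 1 pair, the sums in FPKM were 3.49 and 8.39 for CD8 T cell markers, opposite in direction to the count table, 1.03 and 5.34 for NK cell, 3.06 and 10.2 for macrophage and monocyte, 3.36 and 14.6 for dendritic cell, 0.938 and 1.97 for erythroid and 2.38 and 3.39 for platelet markers. Neutrophil markers summed to 0.742 and 0.455 FPKM, also opposite in direction to the count table. Most of these marker lists differed between the groups, as did the BCL2 family genes, and their part in the results was not tested. In bulk samples, fewer cells of a type and less RNA per cell cannot be told apart.

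The main comparison asked which of the 10 genes differed between MAPK13-inhibitors and DMSO in replicates 2 and 3. The BH3-only gene *Bcl2l11* and both A1 copies were higher with MAPK13-inhibitors, as were *Pmaip1* and, slightly, *Bcl2l1*, while *Bcl2*, *Bbc3* and *Bax* were lower and *Mcl1* and *Bak1* slightly lower. All 10 members passed the filter on low counts and all 10 were called at a Benjamini-Hochberg adjusted p under 0.05, 5 higher and 5 lower, in a comparison where 63.8% of the 16269 genes tested were called, 31.5% higher and 32.3% lower. Without DMSO replicate 3 the members called were 4 higher and 3 lower. For 3 members, *Bcl2l11*, *Bcl2* and *Bbc3*, the call also came with a change of at least 2-fold, against 23.4% of genes tested. Groups did not overlap for any of the 10, as for 83% of all genes tested. The median log2 fold change of the members was 0.00, beside 0.01 over all genes, and their median absolute log2 fold change was 0.72, beside 0.52. Together the 10 genes took 0.175% and 0.176% of all counts with DMSO and 0.173% in both MAPK13-inhibitors libraries. In these libraries the share of the family hardly moved while its composition did. Of all FPKM in replicate 1 the members took 0.163% with DMSO and 0.263% with MAPK13-inhibitors, a larger share with treatment.

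**Figure D1:**
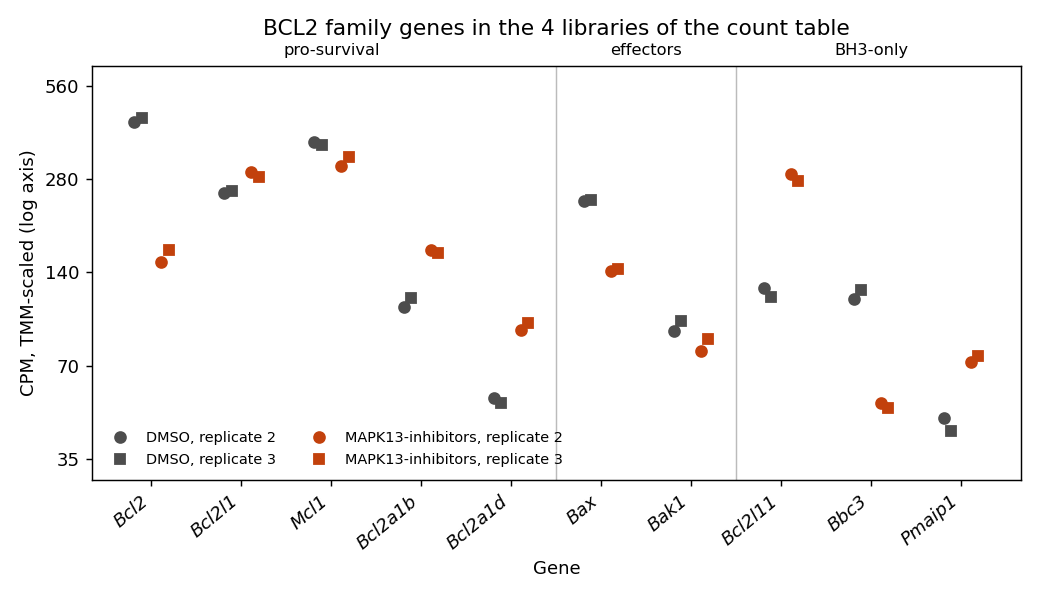
Level of each BCL2 family gene in CPM (TMM-scaled, log axis) in the 4 libraries of the count table, with DMSO in gray and MAPK13-inhibitors in orange, circles for replicate 2 and squares for replicate 3. *Bcl2* went from 429 and 441 CPM with DMSO to 152 and 165 CPM with MAPK13-inhibitors, and *Bcl2l11* from 125 and 116 CPM to 290 and 276 CPM.

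Among the pro-survival genes, *Bcl2*, the founding member of the family, changed most in the count table, whereas both A1 copies changed more in replicate 1. Its level, in CPM scaled by TMM, a trimmed mean of gene ratios that brings libraries to a common scale, as for all genes that follow, was 429 and 441 with DMSO and 152 and 165 with MAPK13-inhibitors. The DMSO libraries were thus far above both others, with little spread within a group. The log2 fold change was -1.46 (SE 0.0594, adjusted p = 3.73e-08 by edgeR's quasi-likelihood test), and 86.0% of all genes tested had a smaller absolute change. Replicate 1 had *Bcl2* at 53.2 FPKM with DMSO and 24.5 FPKM with MAPK13-inhibitors, a log2 ratio of -1.09 on the scale of FPKM + 1. *Bcl2* was therefore lower with MAPK13-inhibitors in both batches.

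*Mcl1*, which encodes a short-lived pro-survival protein, had 368 and 361 CPM with DMSO and 309 and 330 CPM with MAPK13-inhibitors. The groups lay close together, and the spread of the treated libraries was a sizeable part of the gap. Its log2 fold change was -0.19 (SE 0.0544, adjusted p = 0.0112). This call depended on the scaling, because with library totals alone, which shift the median of all genes by 0.13, the log2 fold change was -0.06 (adjusted p = 0.316), and with upper-quartile factors it was -0.11 (adjusted p = 0.100). The call was also lost without DMSO replicate 2 (-0.19, adjusted p = 0.0898) and without DMSO replicate 3 (-0.21, adjusted p = 0.0582), where the change itself was no smaller, and over all alternatives the adjusted p ran from 1.90e-07 to 0.316. In the replicate 1 pair *Mcl1* was higher with MAPK13-inhibitors, at 126 FPKM against 104 FPKM with DMSO.

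*Bcl2l1*, the gene of BCL-xL and of its shorter pro-death splice form, which gene-level counts do not separate, had 252 and 255 CPM with DMSO and 296 and 284 CPM with MAPK13-inhibitors. Both treated libraries were a little above both controls. The log2 fold change was 0.19 (SE 0.0530, adjusted p = 0.00923), and with library totals alone it was 0.32 (adjusted p = 0.000390). Its adjusted p rose to 0.150 without DMSO replicate 2 and to 0.0988 without DMSO replicate 3, at a log2 fold change of 0.17 and 0.19, within a range over all alternatives that began at 7.62e-06. The replicate 1 pair had the same direction, with 57.8 FPKM for DMSO and 80.5 FPKM for MAPK13-inhibitors, a log2 ratio of 0.47.

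A1, an inducible pro-survival protein of blood cells, is encoded in mice by several near-identical copies on chromosome 9. *Bcl2a1b* had 108 and 116 CPM with DMSO and 165 and 161 CPM with MAPK13-inhibitors. *Bcl2a1d* had 54.8 and 53.2 CPM with DMSO and 91.4 and 95.8 CPM with MAPK13-inhibitors. Both copies were higher in each treated library than in either control, by a log2 fold change of 0.54 (SE 0.0612, adjusted p = 2.64e-05) for *Bcl2a1b*. For *Bcl2a1d* it was 0.79 (SE 0.0664, adjusted p = 3.27e-06). Replicate 1 showed wider gaps, where *Bcl2a1b* went from 91.7 to 229 FPKM and *Bcl2a1d* from 42.7 to 132 FPKM, each more than doubled.

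How reads divide between these copies is uncertain, since the annotated transcripts of *Bcl2a1b* and *Bcl2a1d*, of 817 and 863 bases, were identical at 810 of 863 aligned positions and shared an unbroken stretch of 217 bases. *Bcl2a1a*, a further copy of 819 bases, was identical to *Bcl2a1b* at 802 of 819 aligned positions. Summed into 1 gene, the 3 copies had 4379 and 4829 counts with DMSO and 9489 and 9084 counts with MAPK13-inhibitors. The sum rose like its parts, with a log2 fold change of 0.62 (SE 0.0546, adjusted p = 4.38e-06).

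*Bax* and *Bak1* encode the effectors that open the outer membrane. *Bax* had 238 and 240 CPM with DMSO and 141 and 143 CPM with MAPK13-inhibitors. Replicates of a group were nearly alike, and the groups were well apart, with a log2 fold change of -0.75 (SE 0.0542, adjusted p = 1.19e-06). The FPKM of *Bax* in replicate 1 were instead slightly higher with MAPK13-inhibitors, at 255 FPKM against 220 FPKM. *Bak1* had 90.6 and 97.7 CPM with DMSO and 77.9 and 85.1 CPM with MAPK13-inhibitors. The nearest libraries of the groups lay closer together than replicates of a group. The log2 fold change was -0.21 (SE 0.0713, adjusted p = 0.0252), and the call was lost with library totals alone (-0.08, adjusted p = 0.316), upper-quartile factors (adjusted p = 0.135), a minimum of 10 counts in every library (adjusted p = 0.0607), DESeq2 (adjusted p = 0.0562) and without DMSO replicate 3 (-0.16, adjusted p = 0.236). The lowest adjusted p among its alternatives was 1.03e-05. The replicate 1 pair gave 37.9 FPKM with DMSO and 32.6 FPKM with MAPK13-inhibitors.

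The BH3-only genes moved in different directions. *Bcl2l11*, the gene of BIM, had 125 and 116 CPM with DMSO and 290 and 276 CPM with MAPK13-inhibitors. Each treated library stood more than 2-fold above each control, and the log2 fold change was 1.23 (SE 0.0610, adjusted p = 1.25e-07). The replicate 1 libraries listed it at 4.42 FPKM with DMSO and 19.6 FPKM with MAPK13-inhibitors, a log2 ratio of 1.93. Both batches therefore had it higher with MAPK13-inhibitors.

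*Pmaip1*, the gene of NOXA, a BH3-only protein that binds MCL1 and A1, had 47.4 and 43.1 CPM with DMSO and 71.7 and 75.0 CPM with MAPK13-inhibitors. The treated libraries were above both controls. The log2 fold change was 0.70 (SE 0.0750, adjusted p = 1.88e-05). The gap in the replicate 1 pair was wider than for any other member, from 9.04 FPKM with DMSO to 82.0 FPKM with MAPK13-inhibitors, a log2 ratio of 3.05.

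*Bbc3*, the gene of PUMA, which binds all pro-survival members, had 115 and 123 CPM with DMSO and 53.2 and 51.2 CPM with MAPK13-inhibitors. It was thus lower in both treated libraries, opposite to *Bcl2l11* and *Pmaip1*. The log2 fold change was -1.19 (SE 0.0669, adjusted p = 2.61e-07). Replicate 1 listed *Bbc3* at 38.2 FPKM with DMSO and 47.1 FPKM with MAPK13-inhibitors, a log2 ratio of 0.30. The direction in that pair was the reverse of that in the count table.

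**Figure D2:**
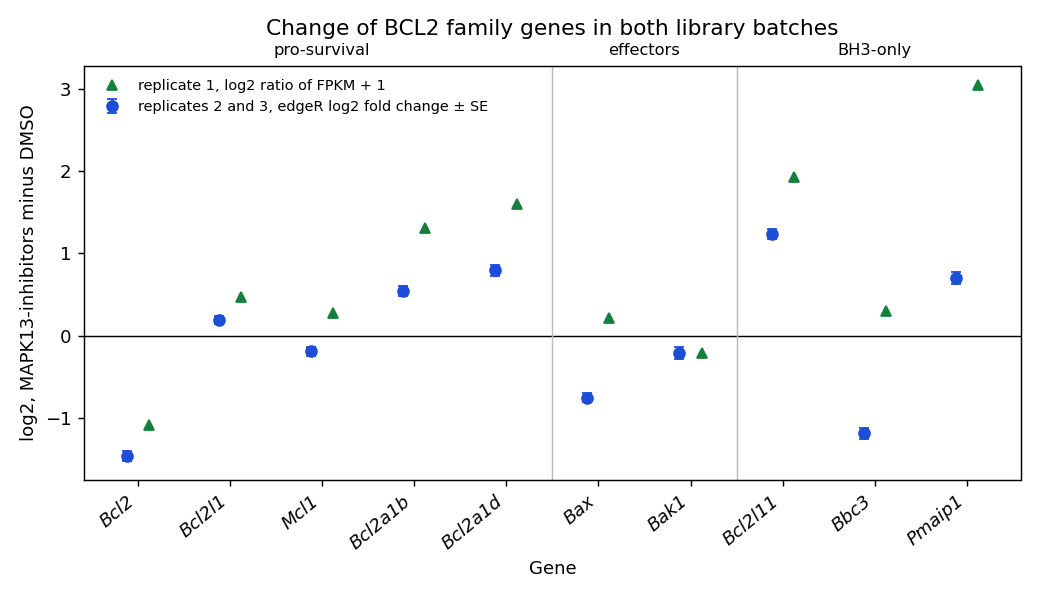
Change of each BCL2 family gene on the log2 scale, MAPK13-inhibitors minus DMSO. Circles are edgeR log2 fold changes of replicates 2 and 3 with bars of 1 SE, and triangles are log2 ratios of FPKM + 1 in the replicate 1 pair, which has no error estimate. Of the 10 genes, 7 lie on the same side of 0 in both, and *Mcl1*, *Bax* and *Bbc3* do not.

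Set side by side, 7 of the 10 members had 1 direction in both batches. In the replicate 1 pair 8 members were higher and 2 lower with MAPK13-inhibitors, 4 of them at least 2-fold higher and 1 at least 2-fold lower. Among the 10448 genes at 1 FPKM or more in each library of that pair, 54.3% were higher, 7.21% were at least 2-fold higher and 2.59% at least 2-fold lower. The median log2 ratio was 0.38 for the members and 0.05 for those genes. The pair has no replicate check, and the 2 batches differ in kit, and in B cell marker level as given above. The part of either in the differing directions was not tested.

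Levels of different genes can be set against each other only per length. Divided by the length of all annotated exons merged, *Bax* was highest with DMSO, at 151 and 152 CPM per kilobase, followed by *Bcl2a1b* at 132 and 142 and by *Mcl1* at 108 and 106. *Bcl2a1d* came next at 63.5 and 61.6 CPM per kilobase. *Bbc3* (54.0 and 57.7) and *Bcl2l1* (54.9 and 55.7) did not differ beyond their spread, and *Bcl2* (46.9 and 48.2) and *Bak1* (37.6 and 40.6) followed. The lowest levels per length were those of *Pmaip1*, at 17.3 and 15.8, and *Bcl2l11*, at 15.6 and 14.5 CPM per kilobase, also close to each other.

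With MAPK13-inhibitors the order changed at both ends. *Bcl2a1b* led at 202 and 197 CPM per kilobase and *Bcl2a1d* was second at 106 and 111, ahead of *Mcl1* (90.5 and 96.6) and *Bax* (89.4 and 90.8), which overlapped. *Bcl2l1* stood at 64.4 and 61.9 CPM per kilobase. *Bcl2l11* had risen from the last place to 36.1 and 34.4, level with *Bak1* at 32.3 and 35.4. *Pmaip1* (26.2 and 27.4) and *Bbc3* (25.0 and 24.1) came below, and *Bcl2* had dropped to the last place, at 16.5 and 18.0 CPM per kilobase. Long untranslated ends, as in the 9157 bases of merged exons of *Bcl2*, lower this measure where they are not all transcribed. In both groups the places of the A1 copies depend on how reads divide between them, which is uncertain, as given above. *Bcl2a1b* also shares exonic bases with another gene on its strand, as given below. In the FPKM of the replicate 1 pair, *Bax* was highest and *Bcl2l11* lowest with DMSO as well, but with MAPK13-inhibitors *Bax* stayed highest at 255 FPKM, above *Bcl2a1b* at 229 FPKM, and *Bcl2l11* stayed lowest at 19.6 FPKM, below *Bcl2* at 24.5 FPKM. The order in that pair thus changed less at its ends than in the count table.

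Ratios between members within a library do not depend on the scaling of libraries. Counts of the death gene *Bcl2l11* per count of *Bcl2*, whose protein binds BIM, were 0.291 and 0.264 with DMSO and 1.92 and 1.67 with MAPK13-inhibitors. The balance of these transcripts thus differed 6.46-fold between groups, a log2 change of 2.69 against an SD of 0.10 and 0.14 within the groups. For replicate 1 the ratio of the FPKM was 0.0831 with DMSO and 0.800 with MAPK13-inhibitors, a log2 change of 3.27.

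Per count of *Mcl1*, *Bcl2l11* had 0.340 and 0.322 counts with DMSO and 0.939 and 0.836 with MAPK13-inhibitors, a log2 change of 1.42, and 1.87 in the replicate 1 pair. *Pmaip1* per count of *Mcl1*, its protein's main partner, was 0.129 and 0.119 with DMSO and 0.232 and 0.227 with MAPK13-inhibitors. This ratio was higher in both treated libraries than in both DMSO libraries and in the replicate 1 pair, by a log2 change of 0.89 in the count table and 2.91 in the replicate 1 pair. The ratio of *Bbc3* to *Mcl1* was 0.312 and 0.340 with DMSO and 0.172 and 0.155 with MAPK13-inhibitors. With MAPK13-inhibitors it was 0.502 times its value with DMSO, but in the replicate 1 pair it was 0.367 with DMSO and 0.375 with MAPK13-inhibitors, nearly level.

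The last ratios set other members against *Bcl2*. *Bax* had 0.555 and 0.544 counts per count of *Bcl2* with DMSO and 0.930 and 0.867 with MAPK13-inhibitors. Although both genes were lower in the count table, *Bcl2* was lower by more, and the ratio rose by 0.71 on the log2 scale, and by 1.33 in the replicate 1 pair. *Bcl2l1* had 0.587 and 0.579 counts per count of *Bcl2* with DMSO and 1.95 and 1.72 with MAPK13-inhibitors. This ratio was higher with MAPK13-inhibitors by a log2 change of 1.65, and of 1.60 in the replicate 1 pair. Raw counts do not order the levels of these genes, and per length *Bcl2l1* was above *Bcl2* in both groups, as given above.

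Of 14 other BCL2 family genes, 11 passed the filter on low counts, and 4 were higher, 3 lower and 4 not called. Leaving out DMSO replicate 2 lowered the number higher to 1, and leaving out DMSO replicate 3 or MAPK13-inhibitors replicate 3 lowered it to 2. *Bmf*, a BH3-only gene whose protein is held at the cytoskeleton, had 17.7 and 17.1 CPM with DMSO and 33.3 and 30.7 CPM with MAPK13-inhibitors. Like *Bcl2l11*, it was higher in both treated libraries, with a log2 fold change of 0.88 (adjusted p = 1.87e-05), and in the replicate 1 pair it went from 0.537 to 1.91 FPKM. *Bcl2l2*, the gene of the pro-survival protein BCL-W, had 43.3 and 48.4 CPM with DMSO and 27.2 and 26.0 CPM with MAPK13-inhibitors, a log2 fold change of -0.78 (adjusted p = 2.48e-05). Its FPKM in replicate 1 were instead 8.97 with DMSO and 11.9 with MAPK13-inhibitors. *Bcl2l13*, a mitochondrial outer membrane protein gene, fell from 86.2 and 83.2 CPM to 57.4 and 56.7 CPM, a log2 fold change of -0.57 (adjusted p = 2.94e-05), but was nearly level in replicate 1, at 9.63 and 9.84 FPKM.

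Other called family genes had low counts or shared sequence. *Bik*, a BH3-only gene, had 34 and 60 counts with DMSO and 6 and 13 with MAPK13-inhibitors, a log2 fold change of -2.67 (SE 0.460, adjusted p = 0.000508). Without MAPK13-inhibitors replicate 3 it was -3.36. Its FPKM in replicate 1 were close, 2.61 with DMSO and 2.33 with MAPK13-inhibitors. *Bok*, a BAX relative, had 4, 5, 16 and 21 counts in the same order, so its call (1.63, adjusted p = 0.0216) rested on few reads and was lost with DESeq2 (adjusted p = 0.161) and without any 1 of the 4 libraries (1.38 to 1.84, adjusted p from 0.0546 to 0.190). *Bcl2a1a*, the minor A1 copy, had 180 and 229 counts with DMSO and 388 and 378 with MAPK13-inhibitors, a log2 fold change of 0.52 (adjusted p = 0.00727) that was not called without DMSO replicate 2 (0.38, adjusted p = 0.105). *Bcl2l15* had 125, 120, 213 and 221 counts, a log2 fold change of 0.44 (adjusted p = 0.0350) that was not called with DESeq2 (adjusted p = 0.132) or without DMSO replicate 2, DMSO replicate 3 or MAPK13-inhibitors replicate 3 (0.36 to 0.49, adjusted p from 0.0767 to 0.218). Replicate 1 had *Bcl2a1a* at 7.16 and 24.2 FPKM and *Bcl2l15* at 0.742 and 5.19 FPKM, both higher with MAPK13-inhibitors, and *Bok* at 0.0424 and 0.116 FPKM, near 0.

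The genes not called were *Bid*, the BH3-only gene that links death receptors to mitochondria, at 24.5, 23.0, 20.7 and 19.7 CPM (log2 fold change -0.23, adjusted p = 0.0538), and *Bad*, a BH3-only gene controlled by growth factor signalling, at 15.1, 17.3, 18.8 and 19.3 CPM (0.24, adjusted p = 0.0778). *Bcl2l12* (0.22, adjusted p = 0.128) and *Bcl2l14* (-0.37, adjusted p = 0.113) also missed the threshold. *Bad* did pass it with library totals alone (0.36, adjusted p = 0.0122), upper-quartile factors (adjusted p = 0.0241) and at least 10 counts in every library (adjusted p = 0.0405). It also passed without MAPK13-inhibitors replicate 2 (0.26), but was at 0.13 without DMSO replicate 2. *Bcl2l12* passed with library totals alone (0.34, adjusted p = 0.0241) and with upper-quartile factors (adjusted p = 0.0449). *Bid* passed without MAPK13-inhibitors replicate 2 (-0.27). *Bcl2l14* passed without MAPK13-inhibitors replicate 3 (-0.61), but was at -0.16 without MAPK13-inhibitors replicate 2. In the replicate 1 pair *Bcl2l14* was instead higher with MAPK13-inhibitors, at 0.631 and 3.69 FPKM, and *Bad* was higher at 12.8 and 19.2 FPKM. *Bid*, at 8.04 and 7.82 FPKM, and *Bcl2l12*, at 8.41 and 8.24 FPKM, were nearly level there. The remaining genes were below the filter. *Bcl2l10* had 0 counts in all 4 libraries, which allows up to 0.112, 0.105, 0.0886 and 0.0920 CPM, *Bcl2a1c* had 2 counts in 1 treated library, and the BH3-only gene *Hrk* had 5, 10, 11 and 3 counts. Floors of this kind cover counting error only.

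The counts of higher and lower genes in all lists other than the members stand beside 63.8% of all genes called, 31.5% higher and 32.3% lower, and a median log2 fold change of 0.01 over all genes. With library totals alone, 6176 of the 16269 genes tested were higher and 4302 lower, in place of 5122 and 5252. Downstream of the outer membrane, 12 genes of the apoptosome and of mitochondrial effectors were all tested, and 4 were higher and 6 lower, with a median log2 fold change of -0.07. *Cycs*, the gene of cytochrome c, which is both an electron carrier and the trigger of the apoptosome, had 83.5 and 85.9 CPM with DMSO and 17.4 and 20.0 CPM with MAPK13-inhibitors. That was the steepest fall of the list, with a log2 fold change of -2.18 (adjusted p = 3.20e-08), yet the replicate 1 pair gave 45.7 and 39.4 FPKM. *Htra2*, a mitochondrial protease that can be released with cytochrome c, fell from 32.8 and 32.1 CPM to 11.7 and 11.4 CPM (-1.49, adjusted p = 5.82e-07). *Dffb*, the nuclease that cuts DNA between nucleosomes, rose from 22.6 and 20.9 CPM to 50.0 and 49.8 CPM (1.20, adjusted p = 9.91e-07). In the replicate 1 pair *Htra2* was nearly level, at 20.6 and 19.4 FPKM, and *Dffb* was higher, at 6.87 and 13.6 FPKM, while 5 of the 12 genes were higher and 7 lower, with a median log2 ratio of -0.02.

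All 7 inhibitor of apoptosis genes were called, 5 higher and 2 lower, with a median log2 fold change of 0.35, and without DMSO replicate 3 the numbers were 4 and 1. *Xiap*, which blocks caspases directly, had 88.0 and 87.4 CPM with DMSO and 113 and 110 CPM with MAPK13-inhibitors (0.35, adjusted p = 0.000495). *Birc5*, survivin, a gene of dividing cells, had 51.4 and 46.8 CPM with DMSO and 29.8 and 36.9 CPM with MAPK13-inhibitors (-0.56, adjusted p = 0.000925). *Naip5*, an inflammasome sensor of myeloid cells that carries the same domain, rose from 5.16 and 6.47 CPM to 13.0 and 13.4 CPM (1.18, adjusted p = 4.61e-05), beside the rise of the macrophage markers given above, whose part was not tested. Of the 7 genes, 5 had the same direction in the replicate 1 pair, *Naip5* among them. At 1 FPKM or more in each library of that pair were 5 of the genes, 1 higher and 4 lower, with a median log2 ratio of -0.18. There *Xiap* was listed at 16.2 FPKM with DMSO and 15.2 FPKM with MAPK13-inhibitors, *Birc5* at 58.2 and 34.4 FPKM and *Naip5* at 0.423 and 1.05 FPKM.

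Of 8 genes listed as outer membrane partners, not all of them coding for proteins of that membrane, 4 were higher and 3 lower. Changes were small, with a median of 0.02. Without DMSO replicate 2 the numbers were 2 higher and 3 lower, with a median of -0.02, and without DMSO replicate 3 also 2 and 3, with a median of 0.01. *Vdac1*, the main pore of the outer membrane, had 368 and 344 CPM with DMSO and 444 and 470 CPM with MAPK13-inhibitors (0.36, adjusted p = 0.000253). *Bcap31*, an endoplasmic reticulum protein cleaved in apoptosis, was higher by 0.39 (adjusted p = 0.000261) and *Hspd1*, a mitochondrial chaperonin, lower at -0.33 (adjusted p = 0.000730). Replicate 1 had 3 of the 8 higher and 5 lower, with a median log2 ratio of -0.34. *Vdac1* was lower there, at 86.9 FPKM with DMSO and 70.1 FPKM with MAPK13-inhibitors, *Hspd1* was lower at 226 and 148 FPKM, and *Bcap31* was nearly level at 79.1 and 80.1 FPKM. Among 5 genes with a BNIP name or a part in mitochondrial autophagy, not all of them of the BCL2 family, 2 were higher and none lower, with a median of 0.16. That median was 0.24 without MAPK13-inhibitors replicate 3 and 0.22 without DMSO replicate 3. It was 0.06 without MAPK13-inhibitors replicate 2 and 0.10 without DMSO replicate 2. *Fundc1*, an autophagy receptor of the outer membrane outside the BCL2 family, went from 17.5 and 17.1 CPM to 31.3 and 30.8 CPM (0.85, adjusted p = 1.87e-05) and *Bnip3* from 363 and 338 CPM to 444 and 448 CPM (0.35, adjusted p = 0.000247). Neither was higher in replicate 1, where *Fundc1* had 7.16 and 6.80 FPKM and *Bnip3* 10.3 and 6.74 FPKM, and where 2 of the 5 genes were higher and 3 lower, with a median log2 ratio of -0.06. *Bnip2* at 79.2, 79.0, 89.1 and 82.1 CPM was not called (0.11, adjusted p = 0.158), except with library totals alone (adjusted p = 0.0101), upper-quartile factors (adjusted p = 0.0268) or without MAPK13-inhibitors replicate 3 (adjusted p = 0.0123).

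*Bax*, *Bbc3* and *Pmaip1* are known targets of the transcription factor p53, and 18 genes of p53 and its other targets were taken beside them. With counts, 6 were higher and 7 lower, with a median log2 fold change of -0.07. With library totals alone the numbers were 8 and 5, with a median of 0.06. The median was 0.03 without MAPK13-inhibitors replicate 2 and -0.12 without MAPK13-inhibitors replicate 3. *Perp*, a membrane protein gene, had 14.0 and 14.2 CPM with DMSO and 57.6 and 56.6 CPM with MAPK13-inhibitors (2.02, adjusted p = 4.21e-08), and *Sesn1*, a stress-induced inhibitor of growth signalling, went from 24.6 and 24.5 CPM to 67.6 and 59.4 CPM (1.37, adjusted p = 5.54e-07). *Plk2*, a kinase gene, fell from 128 and 131 CPM to 50.4 and 61.7 CPM (-1.21, adjusted p = 1.37e-06). The list thus had no common direction in these libraries, like its 3 relatives among the members.

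The picture of this list differed in replicate 1, where 15 of the 17 genes at 1 FPKM or more in each library were higher with MAPK13-inhibitors and 2 lower, 8 of them at least 2-fold higher, with a median log2 ratio of 0.89 where all such genes had 0.05. Whether the batches differ in this was not tested. *Perp* went from 1.17 to 20.0 FPKM, *Sesn1* from 5.26 to 9.88 FPKM and *Plk2* from 31.0 to 54.8 FPKM. *Bax*, *Bbc3* and *Pmaip1* were higher in that pair too, as given above. *Trp53* itself, the gene of p53, named after its values were seen, was at 69.7 and 65.2 FPKM in the pair and at 162, 166, 177 and 180 CPM in the count table (0.12, adjusted p = 0.0754).

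Transcription factors known to act on *Bcl2l11* and *Bbc3* formed a list of 8, with 3 higher and 4 lower and a median of -0.20. *Foxo3*, the forkhead factor that is held out of the nucleus by growth factor signalling and can induce both genes, had 244 and 238 CPM with DMSO and 385 and 372 CPM with MAPK13-inhibitors. It was higher in both batches, with a log2 fold change of 0.65 (adjusted p = 2.59e-06) in the count table and from 12.4 to 21.8 FPKM in the replicate 1 pair. *Ddit3*, the stress factor CHOP, had 141 and 154 CPM with DMSO and 43.4 and 40.6 CPM with MAPK13-inhibitors (-1.81, adjusted p = 3.14e-08). *Atf4*, the stress factor upstream of it, had 543 and 549 CPM with DMSO and 286 and 264 CPM with MAPK13-inhibitors (-0.99, adjusted p = 2.50e-07). Both stress factors were also lower in the replicate 1 pair, at 117 and 47.0 FPKM for *Ddit3* and 249 and 118 FPKM for *Atf4*. Of the 7 factors at 1 FPKM or more in each library of that pair, 3 were higher and 4 lower.

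Of 13 regulators of the MCL1 and BIM proteins, 5 were higher and 4 lower, with a median of 0.09. That median was -0.14 without DMSO replicate 2 and -0.02 without MAPK13-inhibitors replicate 2. It was 0.07 without DMSO replicate 3 and 0.11 without MAPK13-inhibitors replicate 3. *Ier3*, an early response gene whose protein binds MCL1, had 18.3 and 16.4 CPM with DMSO and 89.7 and 91.4 CPM with MAPK13-inhibitors (2.38, adjusted p = 1.62e-08). *Tnfaip8*, a survival gene induced by NF-κB, rose from 104 and 100.1 CPM to 222 and 236 CPM (1.17, adjusted p = 1.60e-07). *Dynll1*, the dynein light chain that holds BIM at microtubules, fell from 107 and 106 CPM to 64.4 and 59.6 CPM (-0.78, adjusted p = 3.70e-06). In the replicate 1 pair *Ier3* and *Tnfaip8* were higher as well, at 5.06 and 15.1 FPKM and at 19.0 and 32.7 FPKM, and *Dynll1* was nearly level at 46.3 and 48.0 FPKM, while 5 of the 12 genes at 1 FPKM or more in each library were higher and 7 lower, with a median log2 ratio of -0.10.

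Survival cytokines keep *Bcl2* and *Mcl1* expressed through receptors that signal by JAK kinases and STAT5. Of 12 genes of this route, 9 were lower and 2 higher, with a median log2 fold change of -0.76, and without DMSO replicate 2 they were 9 and 1. *Il2ra*, the high-affinity subunit of the IL-2 receptor, had 963 CPM in both DMSO libraries and 368 and 430 CPM with MAPK13-inhibitors (-1.27, adjusted p = 2.00e-07). *Pim1*, a kinase gene induced by STAT5, had 551 and 617 CPM with DMSO and 231 and 262 CPM with MAPK13-inhibitors (-1.25, adjusted p = 3.42e-07), and *Il2rb*, the signalling subunit, was lower at -1.06 (adjusted p = 5.58e-07). In the count table most of the route was thus lower, as were 6 of the 7 CD4 T cell markers, whose part was not tested. The higher genes, named after their values were seen, were *Il7r* (0.40, adjusted p = 0.00193) and *Jak1* (0.59, adjusted p = 1.37e-05), both also higher in the other batch. In the replicate 1 pair the same 12 genes had a median log2 ratio of 0.15, with 10 higher and 2 lower, and *Il2ra* among the lower at 384 and 237 FPKM. *Pim1*, at 159 and 185 FPKM, and *Il2rb*, at 194 and 198 FPKM, were not lower there.

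The sequence ahead of RefSeq transcript starts was read for the members that rose together and for both BH3-only genes with known forkhead control. RefSeq promoter entries of build GRCm38.p6 were matched for all members but *Pmaip1*, giving 14 windows of 250 bases. Motifs were searched on both strands, TGANTCA, which takes in the AP-1 site and others with any middle base, GTAAACA for forkhead factors and TGACGTCA for CREB and ATF factors. The letters TGANTCA were found only in the windows of *Bcl2a1b* and *Bcl2a1d* among these 14, and in 6.75% of all 32851 windows. Both matches read TGAATCA, whose middle base is not that of the usual AP-1 site. GTAAACA was in 1 window of *Bcl2l11* and 1 of *Bbc3*, and in 3.17% of all windows, and TGACGTCA was in none of the 14 and in 1.55% of all. The A1 copies are shown for what they share, 135 of 142 aligned bases, and the BH3-only genes because they carry the same letters and moved in opposite directions in the count table. The *Bbc3* window is ahead of an inner start, within the gene's span and downstream of its first annotated start. Each sequence lies outside the annotated exons of its gene, on its own strand, with the motif in capitals, at chr9:89199023-89199208 (+), chr9:88731915-88732100 (-), chr2:128125788-128126037 (+) and chr7:16310011-16310260 (+) in the order shown. A match is a description of the letters and no evidence of binding.
Bcl2a1b: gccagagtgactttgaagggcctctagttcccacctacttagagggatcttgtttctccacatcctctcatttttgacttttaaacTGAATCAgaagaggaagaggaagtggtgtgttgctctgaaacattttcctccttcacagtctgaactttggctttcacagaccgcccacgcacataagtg
Bcl2a1d: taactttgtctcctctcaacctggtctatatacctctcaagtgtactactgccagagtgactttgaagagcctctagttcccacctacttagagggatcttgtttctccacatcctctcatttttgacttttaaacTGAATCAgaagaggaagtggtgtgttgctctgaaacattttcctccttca
Bcl2l11: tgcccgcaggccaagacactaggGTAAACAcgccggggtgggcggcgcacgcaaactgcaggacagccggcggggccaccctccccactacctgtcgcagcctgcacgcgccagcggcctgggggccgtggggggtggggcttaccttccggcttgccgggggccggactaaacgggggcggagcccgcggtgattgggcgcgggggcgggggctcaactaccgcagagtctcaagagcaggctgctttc
Bbc3: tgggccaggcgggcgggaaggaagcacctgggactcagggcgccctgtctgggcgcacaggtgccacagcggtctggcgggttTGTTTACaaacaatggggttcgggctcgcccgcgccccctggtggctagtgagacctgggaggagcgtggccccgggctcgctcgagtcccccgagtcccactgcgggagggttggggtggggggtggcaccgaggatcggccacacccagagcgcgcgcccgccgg

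The motif ended 157 and 107 bases before the RefSeq start in *Bcl2a1b* and *Bcl2a1d*, in otherwise alike surroundings, and 220 and 160 bases before it in *Bcl2l11* and *Bbc3*. The A1 sequences shown are the 186 bases of each window that lie ahead of the annotated gene, so the bases nearest the RefSeq start count in these distances but are not shown. *Bbc3* carries the letters on the opposite strand, read as TGTTTAC.

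In GENCODE M21 on GRCm38, the build to which the reads were aligned, *Bcl2* spans chr1:106538178-106714274 (-), *Bcl2l1* chr2:152780668-152831728 (-) and *Mcl1* chr3:95658788-95663176 (+). The A1 copies lie at chr9:89199209-89207827 (+) for *Bcl2a1b* and chr9:88723285-88731914 (-) for *Bcl2a1d*. *Bax* lies at chr7:45461697-45466898 (-), *Bak1* at chr17:27019810-27029009 (-), *Bcl2l11* at chr2:128126038-128162547 (+), *Bbc3* at chr7:16308393-16318205 (+) and *Pmaip1* at chr18:66458533-66465565 (+). Annotated exons of some members are shared with other genes. On the opposite strand, where reads could not be told apart if the strand was not used, *Bcl2* shares 558 exonic bases with an antisense gene and *Bak1* up to 437 with *Ggnbp1*, which had 76, 91, 68 and 66 counts. On the same strand, where the strand does not separate reads, *Bcl2a1b* shares 401 with the readthrough gene *Gm29094* and *Bax* 192 with *Gm45808*. None of these but *Ggnbp1* had a row under that name in the count table.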

How the data were processed

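The mRNA of splenic CD4+ T cells was sequenced in 3 libraries per group. Per the labels, the reads of replicates 2 and 3 were processed with fastp 0.21.0, HISAT2 2.1.0, StringTie 2.1.5 and DESeq2 1.30.1 on mm10, and those of replicate 1 with FastQC and HISAT2 on the same build. The authors deposited raw counts per gene for replicates 2 and 3 and, for replicate 1, length-normalized values read here as FPKM. A pseudocount of 1 was used for log2 ratios of a gene between the replicate 1 libraries. Ratios between members, and counts of genes at least 2-fold higher or lower in that pair, used FPKM without it.

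Counts were analysed with edgeR 4.0.16 in R 4.3.3 (filterByExpr with a minimum count of 10, TMM scaling, quasi-likelihood test of 2 against 2 libraries, Benjamini-Hochberg adjustment over 16269 genes). TMM factors were 0.960, 0.955, 1.05 and 1.04. Genes were called at an adjusted p under 0.05. Summed marker CPM used library totals. The fitting code was tested on simulated data. The median chi-square per gene between replicates was 1.02 with DMSO and 2.16 with MAPK13-inhibitors (means 2.98 and 9.65). Replicates of both groups thus differed by more than sampling noise alone gives, and each library was kept.

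The members and lists were chosen with earlier results of these data known. Genes named were the members, other family genes with at least 10 counts in a library, and up to 3 genes of smallest p in each other list, besides markers. Family genes under 10 counts are named only to account for the list. With 4 libraries in 2 groups, no ranking by likeness of pattern was made. Sequence identity was computed with Biopython 1.88 on GENCODE M21 transcripts. Alternatives were RLE, upper-quartile and library-total scaling, other filters, a replicate block, DESeq2 1.42.0, other thresholds, summed A1 copies, other pseudocounts and each library left out.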

Additional observations from a re-analysis of the deposited data

Results flagged for a closer look

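In the replicate 1 pair 3 members moved opposite to both libraries of the same comparison in the other batch, and these differences were not tested. *Mcl1* had a log2 ratio of 0.27 in the replicate 1 pair, and of -0.25 and -0.13 between the MAPK13-inhibitors and DMSO libraries numbered 2 and 3. *Bax* had 0.21 in the replicate 1 pair against -0.76 and -0.75. For *Bbc3* the value was 0.30 against -1.11 and -1.26. The replicate 1 pair is 1 library a group in FPKM, so its values have no error estimate.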

How the results depend on the processing

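No called member changed direction under any of the 11 other scalings, filters, tools or left-out libraries, and *Bcl2*, *Bcl2l11*, *Bcl2a1b*, *Bcl2a1d*, *Bax*, *Bbc3* and *Pmaip1* were called under all 11. *Bcl2l1* was called under 9, *Mcl1* under 7 and *Bak1* under 6. The number of members called was 10 in the main comparison, 8 with upper-quartile factors or library totals, 9 with DESeq2 or at least 10 counts in every library, 8 at an adjusted p under 0.01, 9 of 9 with the A1 copies summed, and 7 to 10 with 1 library left out, where the lone library of a group is assumed to vary like the others. With a replicate block it was 10, and 10645 genes of the whole table were called in place of 10374. Same-numbered libraries did not deviate together (correlation -0.0109 over 2 pairs), so the numbers were not taken to pair them.

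Requiring at least 2-fold left 3799 genes in all, fewer by construction. Among them were 3 members, 2 other family genes, 3 apoptosome genes, 2 inhibitors of apoptosis and 5 p53 genes. Also left were 2 regulators of MCL1 and BIM, 2 transcription factors and 3 genes of the survival cytokine route, *Pim1* among them. The list of outer membrane partners kept 0 genes, as did the BNIP and mitochondrial autophagy list. Genes called in that list of 5 rose from 2 to 4 with upper-quartile factors and 5 with library totals, and were 2 to 5 with 1 library left out, 5 of them without MAPK13-inhibitors replicate 3. Other family genes called were 4 to 8 with 1 library left out, 4 without DMSO replicate 2. The cause was not tested. A pseudocount of 0.1 moved the log2 ratio in the replicate 1 pair to 2.12 for *Bcl2l11* and 3.17 for *Pmaip1*. A pseudocount of 1 count moved no ratio between members by more than its spread.

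Limits are the 2 libraries per group with counts, the 2 batches of unlike unit, no dose other than 17.1 µM in the labels, which give none for replicate 1, 1 length of stimulation, and bulk RNA with B cell transcripts. Counts of *Bok* were low. Transcript levels do not give the amounts of these proteins, several of which are short-lived.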
